A study of Mus musculus with 6 samples.

Results

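Eukaryotic DNA replication genes were followed in B16F10, a pigmented melanoma cell line from a C57BL/6 mouse. The 47 genes serve origin licensing, the helicase, polymerases, the sliding clamp, fork stability, chromatin assembly, DNA methylation and histone mRNA. They were taken by name and found by NCBI Gene identifier, and all 47 were among the 16315 genes of the deposited table. One group of 3 libraries came from cells given SAS, for which the labels give no fuller name, at 500 (unit written as μm) for 24 h, and the other group of 3 from cells given 0.05% DMSO as vehicle. A DMSO percentage is labelled for the vehicle libraries only, so whether the SAS cells received the same solvent is not stated. The cells of both groups are the same line with no other labelled change, and it is not labelled whether replicates were separate cultures. The p-values therefore cover only library-to-library spread, which may be technical. The table names the vehicle columns 0 h and the SAS columns 24 h, whereas the protocol incubated both for 24 h. Should 0 h stand for cells collected at the start, time in culture and SAS cannot be told apart.

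Replication begins when the origin recognition complex, with CDC6 and CDT1, loads the ring-shaped MCM2-7 helicase onto DNA in G1 phase. In S phase the kinase CDC7 with DBF4, together with cyclin-dependent kinase, turns the ring into an active helicase by adding CDC45 and GINS. DNA polymerase alpha-primase then lays down primers, the clamp loader RFC places the PCNA ring, and polymerases delta and epsilon copy the strands, while CAF-1, UHRF1 and DNMT1 restore nucleosomes and DNA methylation. Most of these genes are transcribed mainly in cycling cells, many of them through E2F factors. In a bulk culture, fewer cells in S phase and less of an mRNA per cell cannot be told apart.

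Levels are FPKM (fragments per kilobase of transcript, scaled to each library's mapped fragments), which allows genes to be compared per length. How many fragments lie behind a value is unknown. FPKM sums were 590238 to 617275 per library, and the first principal component, with 70.6% of the variance, separated the 2 groups. The pigment cell identity of the line was seen in all 7 of 7 markers, whose summed level was 7414 to 8362 FPKM in vehicle and 8730.3 to 10638 FPKM in SAS. Of 19 markers of leukocytes, fibroblasts, endothelial cells and keratinocytes, 12 were analysed, and 1 of them, Pdgfrb, reached a mean of 1 FPKM. The summed fibroblast markers, 3.09 to 3.87 FPKM in vehicle and 2.42 to 2.87 FPKM in SAS, and the pigment sums did not overlap between the groups, and their part in the results below was not tested. The leukocyte sums of 0.220 to 0.380 FPKM in vehicle and 0.250 to 0.450 FPKM in SAS overlapped, and Krt5 was listed at 0 in all 6 libraries.

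Most replication genes stood lower in SAS-treated cells, each by a modest amount. Of the 47 genes, all of which were tested, 38 fell (80.9%) and 0 rose at a limma adjusted p below 0.05. Over the 10615 genes tested 18.5% fell and 18.9% rose. At an unadjusted p below 0.05, 41 of the 47 were lower and 0 higher. In 39 of them (83.0%) every SAS library lay below every vehicle library, against 24.9% of all genes tested. The median log2 fold change of the 47 was -0.35, on the log2(FPKM + 1) scale used throughout for fold changes, beside -0.014 over all genes tested, and 33 of the 47 lay below the 10th percentile of all genes tested (-0.28). The mean FPKM of the 38 genes that fell differed by -34.6% to -17.5%, SAS against vehicle. A difference of at least 1.5-fold between the means was reached by 3, Dbf4, Gins1 and Mcm7. Summed over the 47 genes, the libraries held 3131, 3077 and 2999 FPKM in vehicle and 2423, 2436 and 2325 FPKM in SAS, or 0.488% to 0.523% and 0.39% to 0.413% of the FPKM of a library.

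**Figure D1:**
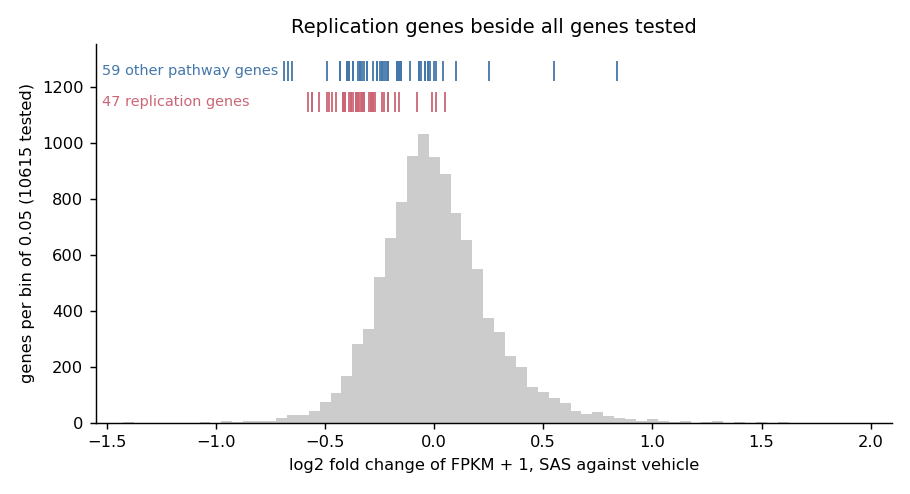
The grey histogram counts the 10615 genes tested by log2 fold change of FPKM + 1, SAS against vehicle, and the ticks above it mark the 47 replication genes (red) and 59 other genes of the pathway (blue). The red ticks run from -0.58 to 0.05 with a median of -0.35, left of the centre of the histogram.

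The vehicle levels spanned a wide range: 10 genes had a mean of at least 100 FPKM, 32 lay from 5 up to 100 FPKM and 5 under 5 FPKM. Pcna was the most abundant in both groups, followed by Mcm2, Mcm3 and Uhrf1, and Pola1 the least. Across the 47 genes the log2 ratio of means was only weakly ordered with the vehicle level (Spearman's rho -0.14) or with transcript length (rho 0.19), given as a description, since the genes share 6 libraries. For the genes with low levels (Pola1, Cdc7, Wdhd1, Orc1 and Gins3) the fold change on the log2(FPKM + 1) scale understates the ratio: the mean of Pola1 differed by -30.9%, a log2 ratio of -0.53, where the tested fold change was -0.30.

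**Figure D2:**
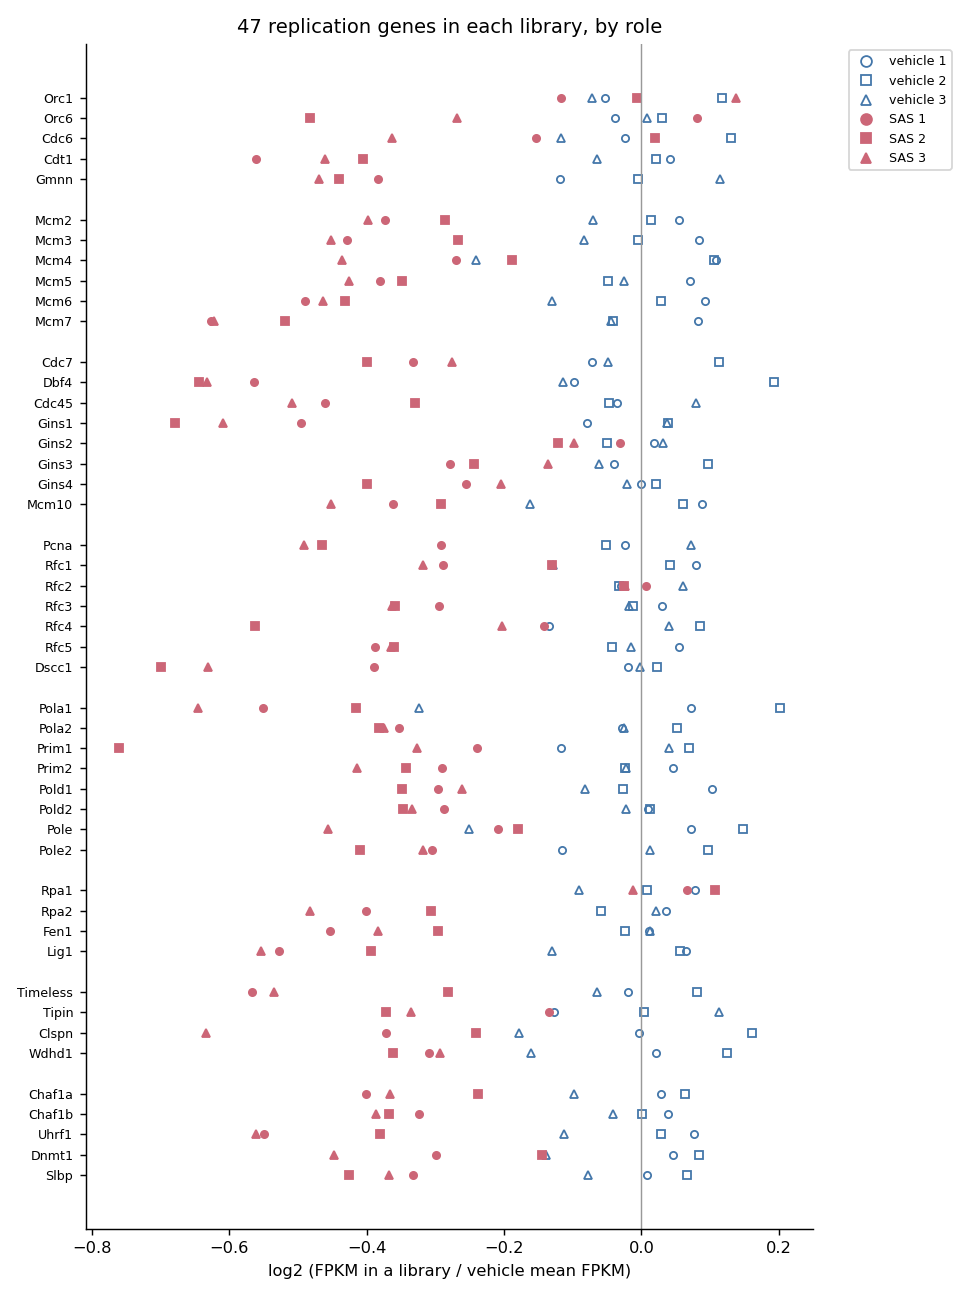
Each row is 1 of the 47 genes, ordered by role (origin recognition and loading, MCM helicase, firing and helicase activation, clamp and clamp loaders, polymerases and primase, single-strand binding and lagging strand, fork protection, chromatin), and each point is 1 library as log2 of its FPKM over the vehicle mean (open blue symbols vehicle, filled red symbols SAS). In 39 rows all red points lie left of all blue points, and in 8 rows, among them Orc1, Rfc2 and Rpa1, the groups overlap.

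Counts within the role groups rest on few genes and are given as values only, beside the 18.5% of all genes tested that fell. Among the genes that mark and license origins, 2 of 5 fell. Cdt1 (NCBI Gene 67177), which brings the MCM ring to the origin, stood at 106, 105 and 98.5 FPKM in the vehicle libraries and 69.9, 77.8 and 74.9 FPKM in the SAS libraries, without overlap, and fell (limma adjusted p = 0.000151 for a log2 change of -0.47 with SE 0.06). Gmnn (NCBI Gene 57441), which encodes geminin, the inhibitor of CDT1, fell as well, to 18.9 ± 0.571 from 25.4 ± 2.06 FPKM (limma adjusted p = 0.000913, log2 change -0.41), where means carry the SD of 3 libraries throughout. The licensing factor and its inhibitor thus both stood lower, and the ratio of Gmnn to Cdt1 was 0.221, 0.242 and 0.279 in the vehicle libraries and 0.279, 0.241 and 0.245 in the SAS libraries, overlapping between groups. Orc1 and Orc6, subunits of the origin recognition complex, and Cdc6 did not pass the test. Orc1, the largest subunit, was at 4.32, 4.86 and 4.26 FPKM in the vehicle libraries and 4.13, 4.46 and 4.93 FPKM in the SAS libraries, a log2 difference of 0.01 (95% interval -0.17 to 0.18, limma adjusted p = 0.959). Cdc6, the ATPase that works with CDT1, was at 26.4, 29.4 and 24.8 FPKM in the vehicle libraries and 24.1, 27.2 and 20.9 FPKM in the SAS libraries (log2 fold change -0.16, 95% interval -0.36 to 0.05, limma adjusted p = 0.205). Orc6 was at 24.5, 25.7 and 25.3 FPKM in the vehicle libraries and 26.6, 17.99 and 20.9 FPKM in the SAS libraries, so that SAS replicate 1 lay above every vehicle library and the other SAS libraries below them. It did not pass the test (limma adjusted p = 0.144). Orc6 passed with limma and array weights (adjusted p = 0.0477) or without SAS replicate 1 (0.00383), in a range of 0.00383 to 0.486 over the alternatives.

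All 6 of 6 subunit genes of the MCM2-7 ring, the motor of the replicative helicase, fell, with a median log2 fold change of -0.38. Mcm7 (NCBI Gene 17220) was at 163, 150.2 and 149.8 FPKM in the vehicle libraries and 100.04, 108 and 100.3 FPKM in the SAS libraries (limma adjusted p = 3.54e-05 for a log2 change of -0.58 with SE 0.06). Every SAS library lay well below every vehicle library. Mcm2, the most abundant subunit, stood at 297, 289 and 272 FPKM in the vehicle libraries and 221, 235 and 217 FPKM in the SAS libraries (limma adjusted p = 0.000758, log2 change -0.35). Mcm3 fell to 129 ± 9.08 from 168 ± 9.73 FPKM, Mcm5 to 104 ± 2.83 from 136 ± 6.07 FPKM and Mcm6 to 60.8 ± 1.24 from 83.7 ± 6.55 FPKM, with log2 fold changes of -0.38, -0.38 and -0.45 and limma adjusted p-values of 0.00117, 0.000348 and 0.000309. In none of these did the groups overlap. Mcm4, the least abundant, was at 35.3, 35.2 and 27.7 FPKM in the vehicle libraries and 27.1, 28.7 and 24.2 FPKM in the SAS libraries, and here vehicle replicate 3 lay below SAS replicate 2. Mcm4 fell with a limma adjusted p of 0.0374. Mcm4 did not pass without the filter (adjusted p = 0.11), without vehicle replicate 1 (0.137), without vehicle replicate 2 (0.142), without SAS replicate 1 (0.0529) or without SAS replicate 3 (0.121), in a range of 0.00387 to 0.142 over the alternatives.

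The subunits assemble in equal number in the ring, yet their mRNA levels per length differed by 8.1- to 9.8-fold between the highest and the lowest subunit of a library. In each vehicle library the order from high to low was Mcm2, Mcm3, Mcm7, Mcm5, Mcm6 and Mcm4. In SAS replicates 1 and 3 Mcm7 stood below Mcm5, and in SAS replicate 2 it stood at 108 against 107 FPKM, so that these neighbours no longer differed beyond their spread. The ratio of Mcm7 to Mcm3 was 0.921, 0.899 and 0.948 in the vehicle libraries and 0.804, 0.775 and 0.819 in the SAS libraries, without overlap (exact two-sided permutation p = 0.10, the smallest that 3 against 3 libraries allow).

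**Figure D3:**
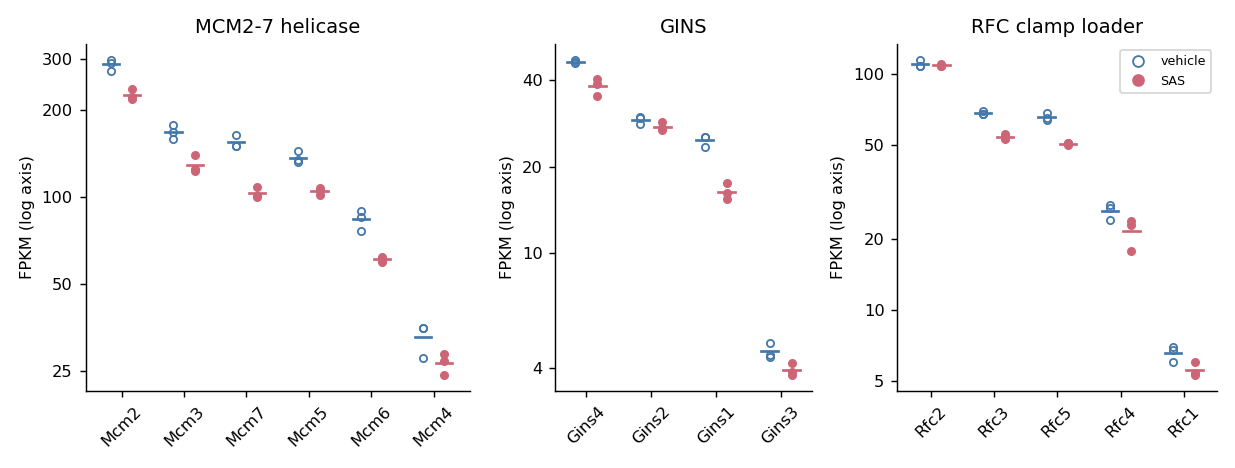
FPKM on a log axis for the subunit genes of MCM2-7, GINS and RFC, ordered by vehicle mean. Open blue points are the 3 vehicle libraries, filled red points the 3 SAS libraries, and bars the means. Mcm7 moves from 154 to 103 FPKM and drops beside Mcm5, while Gins2 and Rfc2 keep overlapping groups.

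Of the genes that fire origins and activate the helicase, 6 of 8 fell. Dbf4 (NCBI Gene 27214), the regulatory subunit that switches on CDC7, was at 13.6, 16.6 and 13.4 FPKM in the vehicle libraries and 9.84, 9.31 and 9.38 FPKM in the SAS libraries (limma adjusted p = 0.000438 for a log2 change of -0.56 with SE 0.08), a difference in means of -34.6%. Its catalytic partner Cdc7, much less abundant, was at 1.82, 2.07 and 1.85 FPKM in the vehicle libraries and 1.52, 1.45 and 1.58 FPKM in the SAS libraries and fell with a limma adjusted p of 0.0293. Cdc7 did not pass without vehicle replicate 1 (adjusted p = 0.0557), without vehicle replicate 2 (0.0991), without SAS replicate 1 (0.0567), without SAS replicate 2 (0.0846) or without SAS replicate 3 (0.0521), in a range of 0.02 to 0.0991 over the alternatives. Cdc45, which completes the active helicase, fell to 33.4 ± 2.17 from 44.97 ± 2.22 FPKM (limma adjusted p = 0.000531, log2 change -0.42). Mcm10, a helicase activator named like the ring subunits but no part of the ring, fell to 19.7 ± 1.10 from 25.4 ± 2.35 FPKM (limma adjusted p = 0.00416, log2 change -0.35).

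Of the 4 GINS subunits, which bind CDC45 and the ring, 2 fell. Gins1 (NCBI Gene 69270) was at 23.4, 25.4 and 25.4 FPKM in the vehicle libraries and 17.5, 15.4 and 16.2 FPKM in the SAS libraries (limma adjusted p = 0.000103 for a log2 change of -0.56 with SE 0.07), a difference in means of -33.7%. Gins4 fell to 38.03 ± 2.62 from 46.3 ± 0.680 FPKM (limma adjusted p = 0.00434, log2 change -0.28). Gins2 was at 29.5, 28.1 and 29.8 FPKM in the vehicle libraries and 28.5, 26.8 and 27.2 FPKM in the SAS libraries, where SAS replicate 1 lay above vehicle replicate 2, and did not pass the test (log2 fold change -0.08, 95% interval -0.20 to 0.04, limma adjusted p = 0.282). Gins3, the least abundant, was lower in every SAS library (4.58 ± 0.277 FPKM with vehicle, 3.94 ± 0.204 FPKM with SAS), with a 95% interval of -0.33 to -0.02 and a limma adjusted p of 0.0725. Gins3 passed with quantile normalization (adjusted p = 0.0372) or with a GC content and length correction (0.0383), in a range of 0.0372 to 0.215 over the alternatives. The ratio of Gins1 to Gins2 was 0.793, 0.903 and 0.853 in the vehicle libraries and 0.615, 0.577 and 0.596 in the SAS libraries, without overlap (exact two-sided permutation p = 0.10).

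Of the sliding clamp and its loaders, 5 of 7 fell. Pcna (NCBI Gene 18538), the ring that holds polymerases on DNA, stood at 425, 417 and 454 FPKM in the vehicle libraries and 353, 313 and 307 FPKM in the SAS libraries (limma adjusted p = 0.000673 for a log2 change of -0.41 with SE 0.07). RefSeq lists 2 pseudogenes named for Pcna, and reads from near-identical copies may be split between them. In the RFC complex, which opens the clamp, Rfc3 was at 69.7, 67.7 and 67.5 FPKM in the vehicle libraries and 55.7, 53.3 and 53.1 FPKM in the SAS libraries (limma adjusted p = 0.000579, log2 change -0.33) and Rfc5 fell to 50.5 ± 0.520 from 65.3 ± 2.29 FPKM (limma adjusted p = 0.000363, log2 change -0.36). Rfc2, the most abundant subunit, was at 108, 107 and 115 FPKM in the vehicle libraries and 110.3, 108 and 108 FPKM in the SAS libraries. These groups overlapped, and the log2 difference of -0.01 had a 95% interval of -0.13 to 0.10 (limma adjusted p = 0.852). The ratio of Rfc3 to Rfc2 was 0.648, 0.631 and 0.589 in the vehicle libraries and 0.505, 0.494 and 0.492 in the SAS libraries, without overlap (exact two-sided permutation p = 0.10).

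The last RFC subunits lay nearest to the threshold of the 47 genes. Rfc4 was at 23.9, 27.9 and 27.01 FPKM in the vehicle libraries and 23.8, 17.8 and 22.8 FPKM in the SAS libraries, and it fell with a limma adjusted p of 0.0415. Its groups met closely, with SAS replicate 1 just below vehicle replicate 1. Rfc4 did not pass without the filter (adjusted p = 0.119), with median-of-ratios size factors (0.0542), with limma and array weights (0.0538), without vehicle replicate 2 (0.141), without vehicle replicate 3 (0.0995) or without SAS replicate 2 (0.131), in a range of 0.0139 to 0.141 over the alternatives. Rfc1, the large subunit, was at 6.94, 6.76 and 6.01 FPKM in the vehicle libraries and 5.38, 6.00 and 5.27 FPKM in the SAS libraries, lower in every SAS library but just short of the test (log2 fold change -0.21, limma adjusted p = 0.0526). Rfc1 passed with median-of-ratios size factors (adjusted p = 0.047), with quantile normalization (0.0293), with limma but without the trend (0.0427), with limma and array weights (0.014), with a GC content and length correction (0.0374), without vehicle replicate 3 (0.0295) or without SAS replicate 2 (0.0369), in a range of 0.014 to 0.187 over the alternatives. Dscc1 belongs to the alternative loader that links the fork to sister chromatid cohesion. It fell to 9.43 ± 1.09 from 13.96 ± 0.206 FPKM (limma adjusted p = 0.000467 for a log2 change of -0.53 with SE 0.08), and the 3 vehicle libraries, 13.8, 14.2 and 13.9 FPKM, were close together.

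Of the polymerase and primase genes, 7 of 8 fell, with log2 fold changes from -0.42 to -0.29 on the FPKM + 1 scale, which understates that of Pola1 (log2 ratio of means -0.53). In polymerase alpha-primase, which starts each strand, the accessory subunit Pola2 was at 41.7, 44.1 and 41.8 FPKM in the vehicle libraries and 33.3, 32.6 and 32.8 FPKM in the SAS libraries (limma adjusted p = 0.000449, log2 change -0.36). The primase subunit Prim2 fell to 32.7 ± 1.40 from 41.6 ± 1.15 FPKM (limma adjusted p = 0.000915, log2 change -0.34). The catalytic primase Prim1 was at 25.4, 28.9 and 28.3 FPKM in the vehicle libraries and 23.3, 16.2 and 21.96 FPKM in the SAS libraries, with SAS replicate 2 far below the others, and fell with a limma adjusted p of 0.0122. Prim1 did not pass without the filter (adjusted p = 0.0591) or without vehicle replicate 2 (0.0518), in a range of 0.00424 to 0.0591 over the alternatives. Pola1, the catalytic subunit and the least abundant of the 47 genes, was at 1.71, 1.87 and 1.30 FPKM in the vehicle libraries and 1.11, 1.22 and 1.04 FPKM in the SAS libraries (limma adjusted p = 0.0179). Vehicle replicate 3 came close to SAS replicate 2. Pola1 did not pass without the filter (adjusted p = 0.0528), without vehicle replicate 1 (0.0647), without vehicle replicate 2 (0.0721) or without SAS replicate 3 (0.057), in a range of 0.00363 to 0.0721 over the alternatives.

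In polymerase delta, which copies the lagging strand, the catalytic Pold1 was at 59.1, 54.0 and 51.96 FPKM in the vehicle libraries and 44.8, 43.2 and 45.9 FPKM in the SAS libraries (limma adjusted p = 0.00336, log2 change -0.29). Its partner Pold2 fell to 101 ± 2.22 from 126 ± 1.69 FPKM (limma adjusted p = 0.00059, log2 change -0.32). The ratio of Pold1 to Pold2 was 0.467, 0.426 and 0.42 in the vehicle libraries and 0.435, 0.437 and 0.46 in the SAS libraries, overlapping between groups. In polymerase epsilon, which copies the leading strand, Pole2 fell to 14.9 ± 0.584 from 18.97 ± 1.40 FPKM (limma adjusted p = 0.0038, log2 change -0.32). The catalytic gene Pole was at 9.67, 10.2 and 7.73 FPKM in the vehicle libraries and 7.96, 8.12 and 6.70 FPKM in the SAS libraries, with vehicle replicate 3 below 2 of the SAS libraries, and did not pass (log2 fold change -0.24, 95% interval -0.46 to -0.02, limma adjusted p = 0.0795). Pole passed with quantile normalization (adjusted p = 0.0458), with limma and array weights (0.0149), with a GC content and length correction (0.0347) or without vehicle replicate 3 (0.014), in a range of 0.0127 to 0.266 over the alternatives.

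Of the genes for single-stranded DNA and Okazaki fragments, 3 of 4 fell. Lig1 (NCBI Gene 16881), the ligase that seals the fragments, was at 87.7, 87.2 and 76.7 FPKM in the vehicle libraries and 58.2, 63.9 and 57.1 FPKM in the SAS libraries (limma adjusted p = 0.00033 for a log2 change of -0.48 with SE 0.07). Fen1, the nuclease that trims their flaps, fell to 49.4 ± 2.71 from 64.1 ± 0.939 FPKM (limma adjusted p = 0.000531, log2 change -0.37). Of the 2 listed subunits of the single-strand binding protein RPA, 1 fell. Rpa2 was at 44.8, 41.9 and 44.3 FPKM in the vehicle libraries and 33.1, 35.3 and 31.2 FPKM in the SAS libraries (limma adjusted p = 0.000674, log2 change -0.39). Rpa1, the large subunit, was at 104, 98.98 and 92.3 FPKM in the vehicle libraries and 103, 106 and 97.5 FPKM in the SAS libraries, with overlapping groups and a log2 difference of 0.05 (95% interval -0.08 to 0.19, limma adjusted p = 0.502). The ratio of Rpa1 to Rpa2 was 2.32, 2.36 and 2.09 in the vehicle libraries and 3.11, 3 and 3.12 in the SAS libraries, without overlap (exact two-sided permutation p = 0.10). A further RPA subunit gene, Rpa3, listed with the other pathway genes, fell to 63.1 ± 5.61 from 75.3 ± 8.52 FPKM (limma adjusted p = 0.0386). Its groups overlapped. RPA also serves in DNA repair and recombination.

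All 4 of 4 fork protection genes fell, without overlap between groups. Timeless (NCBI Gene 21853), whose product travels with the helicase, was at 13.4, 14.4 and 13.02 FPKM in the vehicle libraries and 9.19, 11.2 and 9.40 FPKM in the SAS libraries (limma adjusted p = 0.00201 for a log2 change of -0.42 with SE 0.08). Its partner Tipin fell to 21.6 ± 1.95 from 26.1 ± 2.18 FPKM (limma adjusted p = 0.0208, log2 change -0.27), with SAS replicate 1 at 23.8 FPKM just below vehicle replicate 1 at 23.9 FPKM. Clspn, which encodes the checkpoint mediator claspin, fell to 5.64 ± 0.764 from 7.48 ± 0.875 FPKM (limma adjusted p = 0.0171). Wdhd1, which ties polymerase alpha to the helicase, fell to 2.54 ± 0.0624 from 3.17 ± 0.313 FPKM (limma adjusted p = 0.0283). Tipin did not pass without the filter (adjusted p = 0.0599), without vehicle replicate 2 (0.063), without vehicle replicate 3 (0.0727), without SAS replicate 2 (0.0729) or without SAS replicate 3 (0.0614), in a range of 0.0061 to 0.0729 over the alternatives. Clspn did not pass without the filter (adjusted p = 0.0649), without vehicle replicate 2 (0.0754) or without SAS replicate 3 (0.0657), in a range of 0.00223 to 0.0754 over the alternatives. Wdhd1 did not pass without the filter (adjusted p = 0.0665), without vehicle replicate 1 (0.0905), without vehicle replicate 2 (0.103), without SAS replicate 2 (0.0742) or without SAS replicate 3 (0.0583), in a range of 0.0102 to 0.103 over the alternatives.

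All 5 of 5 genes for chromatin assembly, DNA methylation and histone mRNA fell, without overlap between groups. Uhrf1 (NCBI Gene 18140), which reads hemimethylated DNA and recruits the methyltransferase, was at 175, 169 and 153 FPKM in the vehicle libraries and 113, 127 and 112 FPKM in the SAS libraries (limma adjusted p = 0.000297 for a log2 change of -0.49 with SE 0.07). Dnmt1, that maintenance methyltransferase, was at 81.4, 83.6 and 71.6 FPKM in the vehicle libraries and 64.1, 71.3 and 57.8 FPKM in the SAS libraries (log2 fold change -0.29, limma adjusted p = 0.0165). Vehicle replicate 3 and SAS replicate 2 nearly touched. Dnmt1 did not pass without the filter (adjusted p = 0.0597), without vehicle replicate 1 (0.06), without vehicle replicate 2 (0.0746) or without SAS replicate 3 (0.0583), in a range of 0.00277 to 0.0746 over the alternatives. The histone chaperone CAF-1 is encoded in part by Chaf1a and Chaf1b, which fell to 55.8 ± 3.35 from 70.3 ± 4.08 FPKM and to 79.9 ± 1.78 from 102 ± 2.86 FPKM, with log2 fold changes of -0.33 and -0.35 and limma adjusted p-values of 0.00229 and 0.000379. Their ratio was 0.681, 0.717 and 0.66 in the vehicle libraries and 0.65, 0.75 and 0.696 in the SAS libraries, overlapping between groups. Slbp, whose product binds the stem-loop of histone mRNAs, fell to 22.9 ± 0.752 from 29.6 ± 1.48 FPKM (limma adjusted p = 0.000939, log2 change -0.36).

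**Figure D4:**
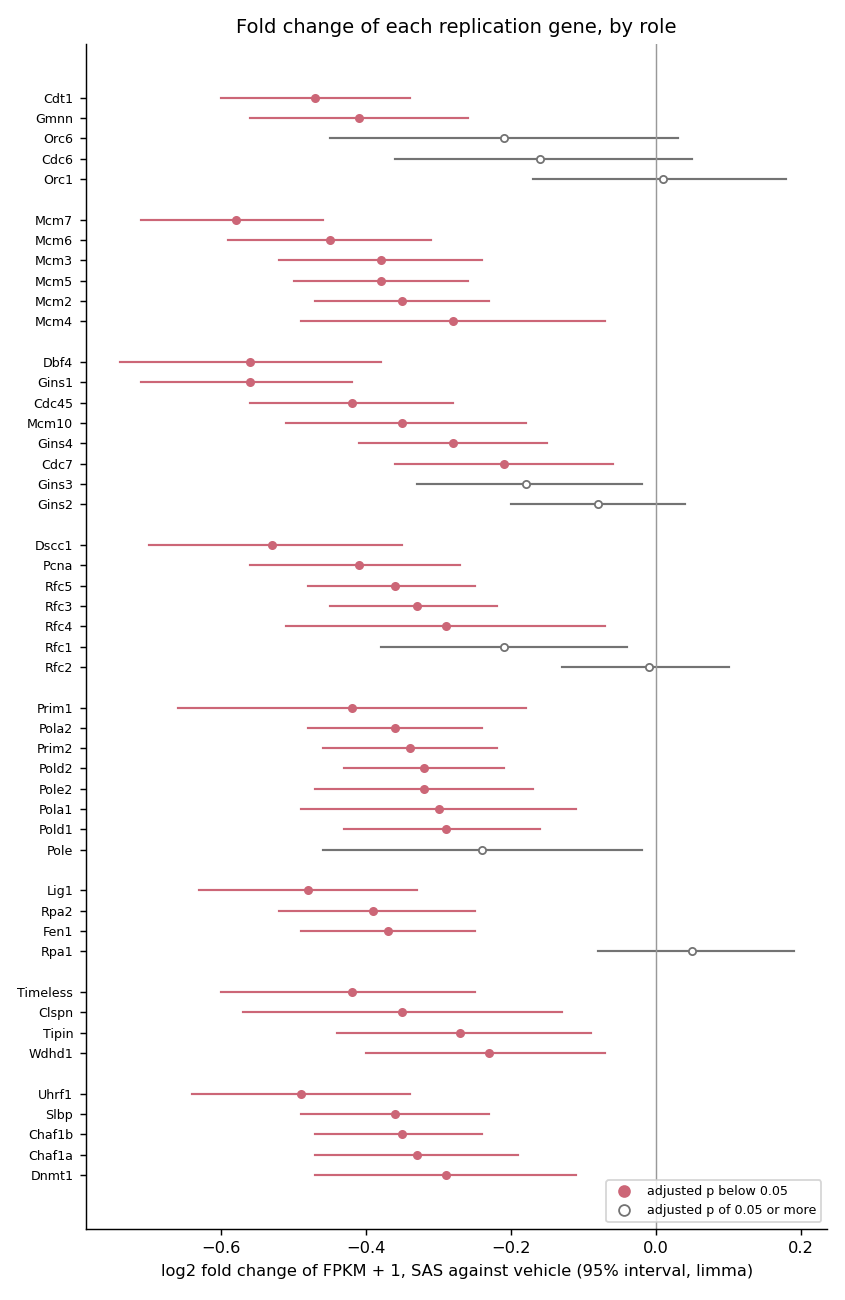
Points are log2 fold changes of FPKM + 1, SAS against vehicle, for the 47 genes, grouped by role and ordered within each role, and lines are 95% intervals from limma. Filled red points passed the test (38 genes) and open grey points did not (9 genes), of which Gins3, Rfc1 and Pole have unadjusted intervals below 0.

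Ratios of partner genes within a library do not depend on its scaling. Of 14 ratios tested, 6 did not overlap between groups: those of Mcm7 to Mcm3, Cdc7 to Dbf4, Gins1 to Gins2, Rfc3 to Rfc2, Rpa1 to Rpa2 and Uhrf1 to Dnmt1. Each had the smallest possible exact permutation p of 0.10, or 0.233 adjusted over the ratios, so that none could pass with this number of libraries. The pairs were chosen by hand with earlier results of these data known, so their count is a description. Gins1 to Gins2, Rfc3 to Rfc2 and Rpa1 to Rpa2 each pair a gene that fell with a gene not called. These ratios repeat the results of the single genes. The largest difference was that of Gins1 to Gins2, -0.51 on the log2 scale, followed by 0.45 for Rpa1 to Rpa2. The ratio of Cdc7 to Dbf4 was 0.134, 0.125 and 0.138 in the vehicle libraries and 0.154, 0.156 and 0.168 in the SAS libraries, and that of Uhrf1 to Dnmt1 was 2.15, 2.02 and 2.14 in the vehicle libraries and 1.76, 1.78 and 1.94 in the SAS libraries. The other 8, among them Prim1 to Prim2, Pole to Pole2 and Timeless to Tipin, overlapped, with exact two-sided permutation p-values of 0.3 to 0.8 and adjusted values of 0.6 to 0.8.

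**Figure D5:**
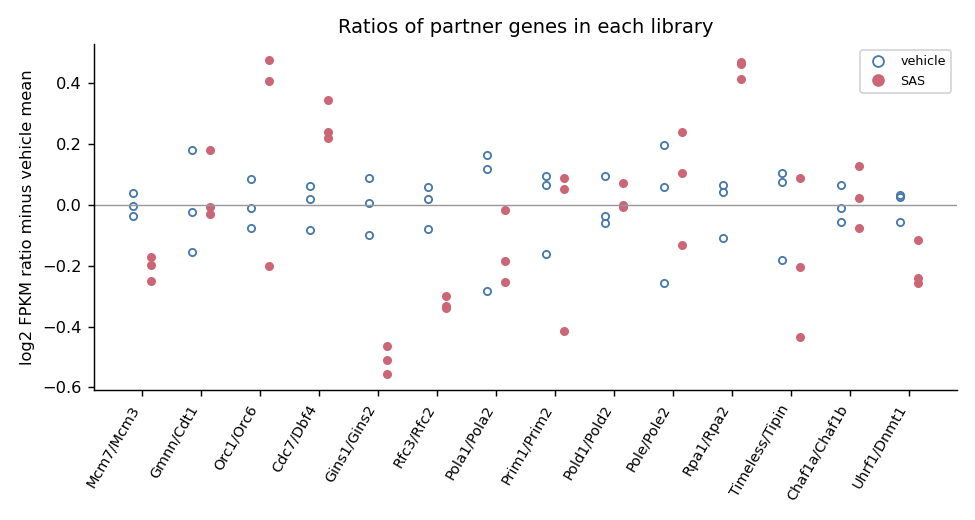
Log2 ratio of the FPKM of 2 partner genes in each library, minus the vehicle mean of that ratio (open blue points vehicle, filled red points SAS, 3 libraries each). The red points lie outside the blue ones for 6 pairs, lowest for Gins1/Gins2, where the mean difference is -0.51.

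Of 60 other genes of the same pathway, 59 were tested, and 32 fell and 3 rose, with a median log2 fold change of -0.24. Of all genes tested, 18.5% fell and 18.9% rose. The checkpoint kinase Atr, with means of 0.343 FPKM in vehicle and 0.310 FPKM in SAS, was below the filter. In the list of histone chaperones and related factors, not all of them chaperones, 9 of 10 genes fell. Asf1b, which hands histones to CAF-1, was at 71.1, 70.5 and 69.5 FPKM in the vehicle libraries and 41.9, 44.4 and 43.9 FPKM in the SAS libraries (limma adjusted p = 5.84e-06 for a log2 change of -0.69 with SE 0.05). Nasp, a carrier of histone H3, fell to 20.8 ± 2.88 from 33.04 ± 1.83 FPKM (limma adjusted p = 0.000233, log2 change -0.65). RefSeq lists a pseudogene named for Nasp. Of the fork checkpoint genes 5 of 6 fell. Chek1, the effector kinase of the S phase checkpoint, was at 3.47, 4.21 and 3.67 FPKM in the vehicle libraries and 2.11, 2.05 and 1.87 FPKM in the SAS libraries (limma adjusted p = 0.000101 for a log2 change of -0.67 with SE 0.08). The ATR activator Etaa1 fell to 0.600 ± 0.0173 from 0.990 ± 0.271 FPKM (limma adjusted p = 0.0187). Etaa1 did not pass without the filter (adjusted p = 0.0508) or without vehicle replicate 2 (0.0515), in a range of 0.00983 to 0.0515 over the alternatives.

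All 3 listed topoisomerase genes, whose products relieve twist in DNA, fell. Top1 fell to 7.28 ± 0.497 from 9.90 ± 1.29 FPKM and Top2b to 2.27 ± 0.159 from 3.22 ± 0.368 FPKM, with limma adjusted p-values of 0.00587 and 0.00471. Some of the smaller lists had shares near the 18.5% of all genes tested that fell, so their counts are given as values only. Of other origin and licensing genes 2 of 7 fell, Orc2 to 7.44 ± 0.394 from 9.93 ± 0.389 FPKM and the MCM-binding factor Mcmbp to 15.3 ± 1.14 from 19.99 ± 0.866 FPKM (limma adjusted p = 0.00151 and 0.00183). Of Okazaki fragment and RNase H genes 3 of 6 fell, led by the nuclease Dna2, to 3.10 ± 0.497 from 4.52 ± 0.409 FPKM (limma adjusted p = 0.00431, log2 change -0.43), and Rnaseh2b, to 7.80 ± 1.56 from 10.8 ± 1.37 FPKM (limma adjusted p = 0.0174). The groups of Rnaseh2b overlapped, with SAS replicate 1 at 9.41 FPKM above vehicle replicate 1 at 9.23 FPKM. Rnaseh2b did not pass without the filter (adjusted p = 0.075), without vehicle replicate 2 (0.0725), without vehicle replicate 3 (0.0546) or without SAS replicate 2 (0.0597), in a range of 0.0029 to 0.075 over the alternatives. Of 4 alternative clamp loader genes 1 fell, Atad5, which unloads PCNA, to 1.02 ± 0.0451 from 1.46 ± 0.217 FPKM (limma adjusted p = 0.0143). Atad5 did not pass without vehicle replicate 2 (adjusted p = 0.0568), in a range of 0.00818 to 0.0568 over the alternatives. Of 8 genes of the ubiquitin ligases that control CDT1 and other cycle proteins 2 fell, the cullins Cul1, to 12.98 ± 0.255 from 16.6 ± 1.26 FPKM, and Cul4b, to 2.04 ± 0.186 from 2.57 ± 0.157 FPKM (limma adjusted p = 0.00299 and 0.0282). Cul4b did not pass without the filter (adjusted p = 0.062), with a GC content and length correction (0.114), without vehicle replicate 1 (0.0866), without vehicle replicate 2 (0.0905), without SAS replicate 1 (0.0832) or without SAS replicate 3 (0.0806), in a range of 0.0134 to 0.114 over the alternatives.

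The 3 genes that rose were Pold4, Cdk2 and Primpol. Pold4 (NCBI Gene 69745), the smallest subunit of polymerase delta, was at 14.7, 13.2 and 13.7 FPKM in the vehicle libraries and 26.5, 25.3 and 25.1 FPKM in the SAS libraries (limma adjusted p = 5.01e-06 for a log2 change of 0.84 with SE 0.06), opposite in direction to Pold1 and Pold2. In RefSeq (GRCm38.p6) the span of Pold4 overlaps 2 uncharacterised genes. Cdk2 (NCBI Gene 12566), the kinase that works with cyclin E at the start of S phase, was at 149, 137 and 153 FPKM in the vehicle libraries and 201, 225 and 220.3 FPKM in the SAS libraries (limma adjusted p = 9.38e-05 for a log2 change of 0.55 with SE 0.06), while in the same list of firing factors 5 of 9 fell, among them the helicase Recql4, to 6.24 ± 0.527 from 9.16 ± 0.264 FPKM (limma adjusted p = 0.000473, log2 change -0.49). The span of Recql4 overlaps the protein-coding genes Mfsd3 and Lrrc14. The span of Cdk2 overlaps that of the melanosome gene Pmel on the other strand, in RefSeq. Pmel was at 2604, 2604 and 3067 FPKM in the vehicle libraries and 3204, 3096 and 4191 FPKM in the SAS libraries, and rose (log2 fold change 0.33, limma adjusted p = 0.0366). The sources name no strand setting, so reads of Cdk2 and Pmel in the shared stretch cannot be told apart. Primpol, a repriming enzyme, rose to 1.80 ± 0.257 from 1.35 ± 0.221 FPKM (limma adjusted p = 0.0447). In the list that holds Pold4 and Primpol, 2 of 6 genes rose and 2 fell, Rpa3 among those that fell. Primpol did not pass without the filter (adjusted p = 0.107), without vehicle replicate 1 (0.0915), without vehicle replicate 3 (0.15), without SAS replicate 1 (0.058) or without SAS replicate 2 (0.157), in a range of 0.0113 to 0.157 over the alternatives.

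Since most of the 47 genes moved together, their promoters were read for the words bound by E2F factors and for the CCAAT box, both common in cell cycle promoters. RefSeq (GRCm38.p6) promoters, 250 bases before to 50 after a start, were at hand for 37 of the 47 genes. An E2F word (TTTCCCGC, TTTCGCGC, TTTGCCGC or TTTGGCGC, on either strand) was in 16 of 37 (43.2%), against 440 of 8604 (5.1%) of the genes tested that had a promoter and 704 of 27025 (2.6%) of all genes of the table. Among the promoters of the genes that fell it was in 13 of 31 (41.9%), and of those not called in 3 of 6. The other pathway genes held an E2F word in 13 of 53 (24.5%), so it was not particular to the 47 genes. The box CCAAT, on either strand, was in 23 of 37 (62.2%), against 3726 of 8604 (43.3%). This box was in 18 of 31 (58.1%) of the genes that fell and 5 of 6 of those not called. The cell cycle homology words TTTGAA or TTCGAA were in 10 of 37 (27.0%), against 1382 of 8604 (16.1%). Matches of these words may share bases with each other, and TTCGAA reads the same on both strands. In the 150 bases before the start alone the E2F share was 7 of 37 (18.9%), against 243 of 8604 (2.8%), lower than over the longer window in both sets. In that stretch it was in 4 of 31 (12.9%) of the genes that fell and 3 of 6 of those not called. Of the other pathway genes, 8 of 53 (15.1%) held an E2F word there. The homology words TTTGAA or TTCGAA were there in 3 of 37 (8.1%), against 633 of 8604 (7.4%). A matching word is a description and not a site of binding.

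The stretches of 150 bases before the start are shown 5′ to 3′ along the gene for Mcm5, Mcm6, Mcm7 and Pcna, which fell, and for Orc1 and Rpa1, which were not called, with E2F words and CCAAT boxes of either strand in capitals. In GRCm38.p6 they lie as follows: Mcm5 at chr8:75109359-75109508 (plus strand), Mcm6 at chr1:128359706-128359855 (minus strand), Mcm7 upstream start at chr5:138171884-138172033 (minus strand), Mcm7 downstream start at chr5:138171267-138171416 (minus strand), Pcna at chr2:132253181-132253330 (minus strand), Orc1 at chr4:108579304-108579453 (plus strand), Rpa1 at chr11:75348384-75348533 (minus strand). Mcm6 holds 3 E2F words, of which 2 overlap, and 2 CCAAT boxes, and Mcm5 holds 1 and 2. Orc1 also holds 1 E2F word and 2 CCAAT boxes although its level did not pass the test. Both starts of Mcm7, Pcna and Rpa1 hold CCAAT boxes without an E2F word in this stretch. The printed genes were chosen by hand and do not stand for the rest. Of the genes that fell, 16 of 31 (51.6%) hold a CCAAT box in this stretch, as do 4 of 6 of those not called. Among the genes tested the share is 2796 of 8604 (32.5%). Others that fell, such as Mcm2, Cdt1 and Dbf4, hold neither an E2F word nor a CCAAT box there.
Mcm5: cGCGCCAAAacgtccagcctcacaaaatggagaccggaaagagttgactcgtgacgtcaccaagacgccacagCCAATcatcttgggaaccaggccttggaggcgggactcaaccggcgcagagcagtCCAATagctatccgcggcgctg
Mcm6: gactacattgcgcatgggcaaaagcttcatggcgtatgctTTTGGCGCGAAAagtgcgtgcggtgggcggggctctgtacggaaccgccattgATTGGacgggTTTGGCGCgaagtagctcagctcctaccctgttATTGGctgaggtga
Mcm7 upstream start: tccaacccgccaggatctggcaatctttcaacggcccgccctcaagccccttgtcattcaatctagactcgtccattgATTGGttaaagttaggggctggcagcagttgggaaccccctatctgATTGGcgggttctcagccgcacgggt
Mcm7 downstream start: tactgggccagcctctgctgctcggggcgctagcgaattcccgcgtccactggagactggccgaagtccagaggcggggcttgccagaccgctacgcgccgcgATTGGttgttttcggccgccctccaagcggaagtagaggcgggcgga
Pcna: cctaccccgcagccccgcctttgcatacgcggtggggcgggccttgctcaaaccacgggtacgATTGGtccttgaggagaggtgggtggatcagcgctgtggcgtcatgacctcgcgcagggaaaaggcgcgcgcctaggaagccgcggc
Orc1: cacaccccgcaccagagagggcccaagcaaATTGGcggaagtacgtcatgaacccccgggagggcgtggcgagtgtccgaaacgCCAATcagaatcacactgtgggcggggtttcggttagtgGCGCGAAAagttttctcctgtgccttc
Rpa1: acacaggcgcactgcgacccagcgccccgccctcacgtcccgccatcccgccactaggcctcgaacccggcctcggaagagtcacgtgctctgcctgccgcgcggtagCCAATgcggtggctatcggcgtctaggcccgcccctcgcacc

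The libraries of a group differed from each other in a patterned way across the 47 genes. Vehicle replicate 3 was the lowest of its group for 28 of them. SAS replicate 2 was the highest of its group for 23 and the lowest for 17, and SAS replicate 3 the highest for 6 and the lowest for 21. The deviation of a library from its group mean followed transcript length across the 47 genes, as a description over genes that share their libraries: Spearman's rho was 0.54, 0.32 and -0.7 for vehicle replicates 1, 2 and 3, and -0.36, 0.58 and -0.36 for SAS replicates 1, 2 and 3. Long transcripts such as Pole and Dnmt1 were thus low in vehicle replicate 3 and high in SAS replicate 2, and short ones such as Orc6 and Rfc4 low in SAS replicate 2. With GC content and length taken out, a correction chosen after seeing the data, 41 of the 47 genes fell and 0 rose, with a median log2 fold change of -0.35. RefSeq spans of 11 of the 47 genes overlap a protein-coding neighbour, among them Mcm7 with Ap4m1, Rfc4 with Eif4a2 and Gins2 with Gse1, and reads in shared stretches may be counted for either gene.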

How the data were processed

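Total RNA of B16F10 cells (6 libraries) was prepared for BGISEQ-500 sequencing, per the labels' protocols. Levels are the FPKM that the authors deposited in 1 table, per the file headers, with values to 2 decimals that are too coarse to recover reads, so depth is unknown and no count test was run. FastQC, HISAT and Bowtie2 are named per the submitters' processing notes, and for the FPKM program, build and annotation the sources used here give no name. Columns named 24 h were matched to SAS by its treatment label and columns named 0 h to vehicle by elimination. NCBI Gene identifiers were named from RefSeq GRCm38.p6 (16206 of 16315 matched).

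Fold changes and tests came from limma 3.58.1 (R 4.3.3) on log2(FPKM + 1), its trend option on, for 10615 genes averaging 0.5 FPKM or more, Benjamini-Hochberg adjusted over all of them at 0.05. The script was tested on simulated data. Ratios used a two-sided exact permutation test. The genes, role groups, pathway lists and ratio pairs were chosen with earlier results of these data known. Every one of the 47 genes is named, with up to 2 called genes per list of other pathway genes and in addition Rpa3. The ratio partners and printed promoters were chosen by hand. Alternatives changed the pseudocount, filter, scaling, replicate block, trend and weights or left out a library in turn, and a correction for GC content and length (GENCODE M21, longest transcript, 99.0% of tested genes, all 47) was added after the data were seen. Python 3.11.15, pandas 2.3.3 and matplotlib 3.10.9 made tables and plots.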

Additional observations from a re-analysis of the deposited data

How the results depend on the processing

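Of the 38 replication genes that fell, 29 passed in each of the alternatives in which they were tested and 9 did not in at least 1, while none changed direction. The count of these genes that fell was 30 with no filter and 29 to 38 when 1 library was left out, lowest without vehicle replicate 2, and 35 of 42 tested at a mean of 5 FPKM. Replicate numbers are shared by the groups, but the deviations of same-numbered libraries correlated at -0.08, 0.145 and 0.234, so they are not taken as pairs. With a replicate block 40 of the 47 genes fell, and 34 other pathway genes fell and 3 rose. Rfc1 and Pole passed with it (0.0322 and 0.0127 as limma adjusted p). Over all genes, 4345 were called with the block against 3969 without it. Leaving out a library turned the direction of values near 0, in ranges of -0.05 to 0.06 for the log2 fold change of Orc1 (and -0.0022 with quantile normalization) and -0.03 to 0.02 for Rfc2. Ranges of log2 ratio differences were -0.03 to 0.14 for Gmnn/Cdt1, -0.18 to 0.07 for Prim1/Prim2, -0.01 to 0.07 for Pold1/Pold2, -0.06 to 0.17 for Pole/Pole2 and -0.03 to 0.08 for Chaf1a/Chaf1b. With 1 added to FPKM, the difference of Pola1/Pola2 turned to 0.06. In the 150 bases before the start the shares in replication genes and genes tested were 18.9% and 2.8% for E2F words and 54.1% and 32.5% for CCAAT. For TTTGAA or TTCGAA they were 8.1% and 7.4%, against 27.0% and 16.1% over the longer window. The difference for these words was thus nearly absent in the shorter window. With depth unknown, no counting error can be given for the 5 replication genes under 5 FPKM.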
